A study of Mus musculus with 8 samples.

Results

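Mitochondrial fatty acid oxidation was followed through 10 enzymes chosen by name: the carnitine palmitoyltransferases Cpt1a and Cpt2, the acyl-CoA dehydrogenases Acadvl, Acadl, Acadm and Acads, the hydroxyacyl-CoA dehydrogenases Hadha and Hadh, and the thiolases Hadhb and Acaa2. Of the 10, 9 had at least 1 probe set that the platform annotation ties to that gene alone, among 19958 genes measured in this way; Hadhb had none and was not analysed here. The cells were blood stem and early progenitor cells of mice, sorted by flow cytometry as lineage-negative and positive for Sca1 and cKit, and their RNA was amplified and read on the Affymetrix Mouse Gene 1.0 ST array. The 3 groups were Hmga2-/- fetal liver of E14.5 embryos (n = 3), adult Hmga2+/+ bone marrow taken at 8 to 12 weeks of age (n = 2) and Hmga2+/+ fetal liver of E14.5 embryos (n = 3), called knockout fetal liver, adult bone marrow and wild-type fetal liver below. The labels call the arrays of a group biological replicates but do not say how many animals were pooled in each, and no strain is named in the sources used here. Adult and fetal samples differed in age and in organ at once, and these cannot be told apart. The enzymes were picked with their levels in the 3 groups already known, so their differences and adjusted p-values describe these 8 arrays and are no independent evidence for a pattern.

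Long-chain fatty acids are activated to acyl-CoA, handed to carnitine by Cpt1a on the outer mitochondrial membrane and turned back into acyl-CoA by Cpt2 on the inner one. Each round of oxidation then uses an acyl-CoA dehydrogenase matched to chain length, a hydratase, a hydroxyacyl-CoA dehydrogenase and a thiolase, and releases acetyl-CoA for the tricarboxylic acid cycle. Cpt1a is the step at which malonyl-CoA, the building block of fatty acid synthesis, blocks entry. In mouse bone marrow, fatty acid oxidation driven by PPAR delta is known to bear on the maintenance of blood stem cells, while the fetal liver is an organ in which these cells divide.

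The values are log2 of the deposited intensities, averaged over the probe sets of a gene. They carry no detection call, so the 95th percentile of 980 olfactory receptor genes, a log2 level of 5.83, served as the background level. Hmga2 itself read 5.89, 5.88 and 6.08 in knockout fetal liver, 6.61 and 7.19 in adult bone marrow, and 9.24, 9.01 and 8.83 in wild-type fetal liver. Its knockout minus wild-type difference was -3.08 (SE 0.19, limma adjusted p = 0.000448). Kit, the cKit gene, lay between 9.64 and 10.28 on all 8 arrays, and Ly6a, the Sca1 gene, was above background on all but knockout replicate 1, where it read 5.59. Both adult arrays of Ly6a stood above every fetal array. Its knockout minus adult difference was -2.32 (SE 0.44, limma adjusted p = 0.0179), and adult minus wild-type was 1.82 (SE 0.44, adjusted p = 0.0592). The part of this gate gene's difference in the enzyme differences was not tested. A list of 12 hepatocyte genes averaged 5.47 to 5.55 over the knockout arrays, 5.61 to 5.66 over the adult arrays and 5.51 to 6.02 over the wild-type fetal arrays, with 0 genes called in any comparison. Wild-type fetal replicate 3 had the highest of these averages, with Apoa2 at 7.86, Alb at 6.65 and Afp at 6.50. Ttr, Apob, Fgb, Ahsg and Cps1 stayed below background on every array, whereas Apoa1, Trf and Hnf4a were above it on every array. Apoa2 was also above it on the knockout arrays (6.92, 6.37 and 6.23). Averages of 12 proliferation genes were 8.66 to 8.82 (knockout fetal liver), 7.42 to 7.75 (adult bone marrow) and 8.53 to 8.83 (wild-type fetal liver). For 8 megakaryocyte genes they were 5.87 to 6.38 (knockout fetal liver), 6.48 to 6.78 (adult bone marrow) and 5.85 to 6.005 (wild-type fetal liver). Of these 8, 2 were called higher in adult bone marrow than in wild-type fetal liver (0.832% of all genes). In that comparison 1 of 12 lymphoid and 1 of 11 granulocyte and monocyte genes were also called higher. Of 11 stem and progenitor genes, 1 was called lower (2.36% of all genes). The erythroid, macrophage, and endothelial and stromal lists had 0 called. The part of these markers in the enzyme differences was not tested.

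Promoter windows of 300 bases, 250 before and 50 after the annotated start, were taken from RefSeq (build GRCm38.p6) for 9 of the 10 enzymes, Hadhb included and Acaa2 not. For Cpt1a the start of this table lies inside the annotated gene span, downstream of its first base; for the other 8 it is the first base of the gene. The windows of Cpt1a and Acadm are shown because each holds the letters AGGTCA, the half-site that PPAR and estrogen-related receptors are known to bind, read here on the opposite strand and set in capitals. The window of Hadha is shown because 228 of its bases, in capitals, are also part of the Hadhb window on the other strand. These bases lie between the annotated starts of the genes for both subunits of the trifunctional protein and hold neither start. The windows lie at chr19:3323051-3323350 (Cpt1a, plus strand), chr3:153944594-153944893 (Acadm, minus strand) and chr5:30154931-30155230 (Hadha, minus strand).
Cpt1a: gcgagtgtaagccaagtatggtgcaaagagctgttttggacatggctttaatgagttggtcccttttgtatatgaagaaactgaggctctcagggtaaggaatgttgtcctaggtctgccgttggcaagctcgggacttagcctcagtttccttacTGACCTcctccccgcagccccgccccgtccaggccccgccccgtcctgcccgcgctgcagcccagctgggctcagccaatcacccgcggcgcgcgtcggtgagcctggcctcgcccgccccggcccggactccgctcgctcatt
Acadm: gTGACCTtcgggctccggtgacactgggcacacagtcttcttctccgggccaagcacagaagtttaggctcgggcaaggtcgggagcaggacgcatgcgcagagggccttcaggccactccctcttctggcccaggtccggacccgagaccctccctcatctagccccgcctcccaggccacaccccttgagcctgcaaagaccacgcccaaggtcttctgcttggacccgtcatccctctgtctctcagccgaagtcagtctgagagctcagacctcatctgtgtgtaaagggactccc
Hadha: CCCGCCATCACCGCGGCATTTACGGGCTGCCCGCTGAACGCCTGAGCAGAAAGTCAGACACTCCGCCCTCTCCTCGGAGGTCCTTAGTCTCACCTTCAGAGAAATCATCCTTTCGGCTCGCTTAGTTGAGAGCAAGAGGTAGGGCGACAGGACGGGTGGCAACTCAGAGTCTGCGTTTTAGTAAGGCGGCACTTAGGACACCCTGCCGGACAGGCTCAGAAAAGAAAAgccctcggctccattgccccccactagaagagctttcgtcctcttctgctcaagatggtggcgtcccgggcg

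Both strands were searched for AGGTCA in all 32851 mouse promoter windows of this length, and 16.3% held it. Of the 9 enzyme windows, 3 did: Cpt1a from position -94, Acadm from -249 and Acadvl from -87 relative to the start used for its window. The longer estrogen-related receptor motif TCAAGGTCA, which contains AGGTCA, stood in 0.423% of all windows, and 2 half-sites in a row with 1 base between them (DR1) stood in 0.0396%. Neither was found in an enzyme window, which says little, because motifs this rare would seldom turn up in 9 windows. The Nrf1 motif GCGCANGCGC was held by 4.6% of all windows and CACGTG by 7.15%, and 0 of the 9 enzyme windows held either. The 9 windows had 9 to 34 CpG dinucleotides and 50.7% to 70.3% G and C, against medians of 7 and 52.7% over all windows.

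In adult bone marrow, Cpt1a was higher and Acaa2 lower than in wild-type fetal liver. Hadha, Acadm, Hadh and Acads also lay lower on both adult arrays without passing the test (limma adjusted p 0.117 to 0.514). Arrays without overlap, in either direction, were seen for 35.7% of all genes in this comparison. The loss of Hmga2 moved none of the 9 enzymes past the test in fetal liver. Knockout fetal liver set against adult bone marrow had higher Acaa2 and Hadha and lower Cpt1a. Each enzyme call, in this comparison and for adult minus wild-type, was lost under most of the alternatives given below. The tests are moderated tests of limma, fitted on all 8 arrays and adjusted by the Benjamini-Hochberg method over 19958 genes, with an adjusted p under 0.05 counted as called. For adult bone marrow minus wild-type fetal liver, 2 of 9 enzymes were called (3.19% of all genes), 1 of them higher (0.832% of all genes) and 1 lower (2.36%). For knockout minus wild-type fetal liver, 0 of 9 were called (0.01% of all genes), and 0 of 9 had an unadjusted p under 0.05. For knockout fetal liver minus adult bone marrow, 3 of 9 were called (8.91% of all genes), 2 higher (5.8%) and 1 lower (3.11%). These shares include genes below background. Among the 11713 genes above it in at least 1 group, 755 were called for adult minus wild-type, 2 of them enzymes. For knockout minus adult 1736 were called, 4 of them enzymes. In bulk RNA, fewer cells of a type and less RNA per cell cannot be told apart.

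**Figure D1:**
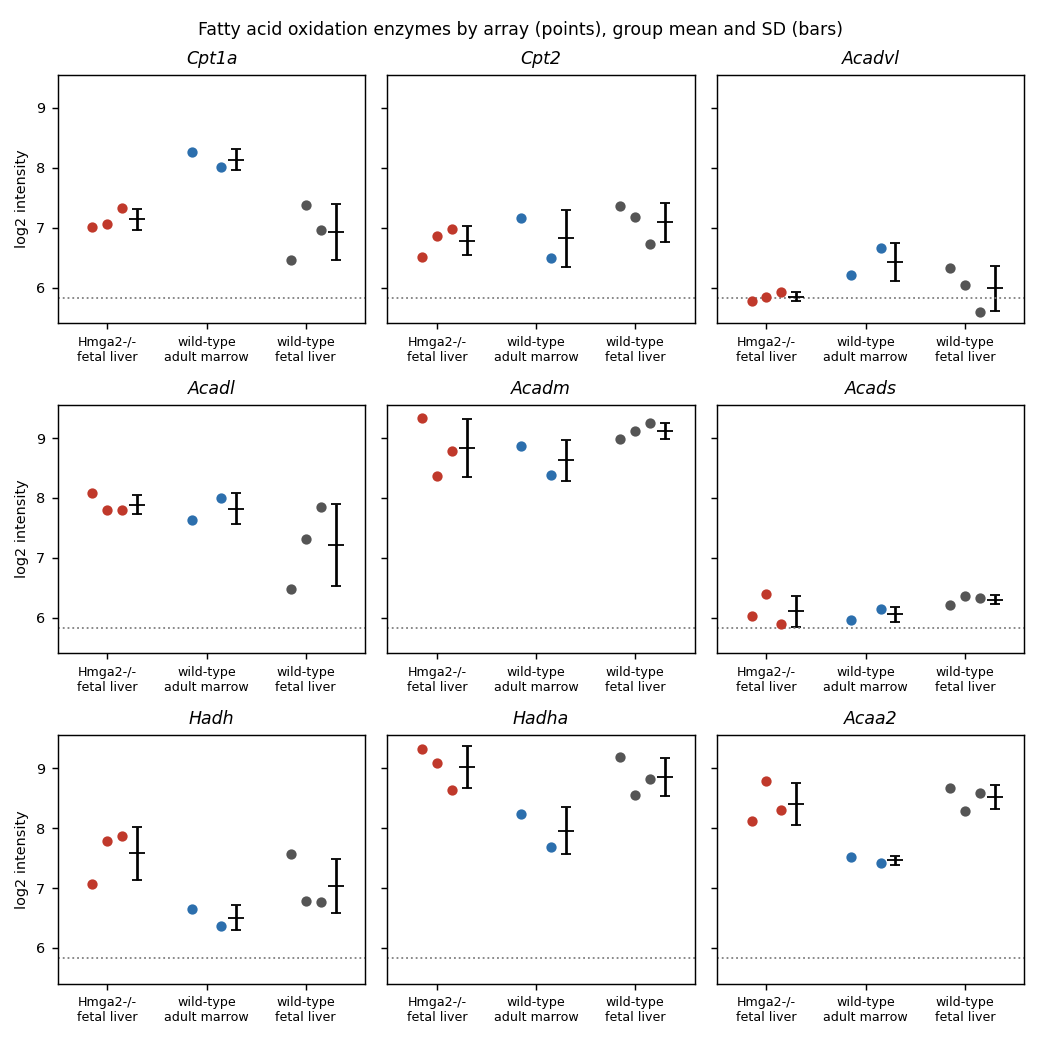
Log2 intensity (vertical axis) of each measured enzyme on every array, as points for knockout fetal liver, adult bone marrow and wild-type fetal liver from left to right, with the group mean and SD as bars and the background level of 5.83 as a dotted line. Both adult arrays of Cpt1a lie above all 6 fetal arrays, and both adult arrays of Acaa2, Hadha and Hadh lie below them.

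Cpt1a, the entry enzyme, read 7.02, 7.06 and 7.33 in knockout fetal liver, 8.26 and 8.01 in adult bone marrow, and 6.45, 7.38 and 6.96 in wild-type fetal liver. Both adult arrays stood above every fetal array, and the 2 fetal groups overlapped. The means were 8.14 ± 0.18 in adult bone marrow (SD, n = 2) and 6.93 ± 0.46 in wild-type fetal liver (SD, n = 3), a 2.31-fold higher adult level (log2 difference 1.21, SE 0.26, limma adjusted p = 0.0406). Knockout minus adult came to -0.998 (SE 0.26, adjusted p = 0.0446), and knockout minus wild-type to 0.21 (95% interval -0.31 to 0.72). With each array left out in turn, the adult minus wild-type difference stayed between 0.97 and 1.43, but the call held only in the fit that left out wild-type replicate 2 (adjusted p = 0.0363). It was lost in the 4 fits that left out adult replicate 1 or 2 or wild-type replicate 1 or 3, with adjusted p up to 0.162. The knockout minus adult call was lost whichever 1 of its 5 arrays was left out (adjusted p 0.0761 to 0.182).

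Cpt2, which returns the acyl group to CoA inside the mitochondrion, read 6.51, 6.86 and 6.98 in knockout fetal liver, 7.15 and 6.49 in adult bone marrow, and 7.36, 7.18 and 6.72 in wild-type fetal liver. The 3 groups overlapped, and the adult arrays were at least as far apart as those of either fetal group. Its differences were -0.27 for adult minus wild-type (adjusted p = 0.621), -0.31 for knockout minus wild-type (adjusted p = 0.75) and -0.04 for knockout minus adult (adjusted p = 0.941). The last is positive with each array centred on its median (0.04) and negative as deposited.

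Acadvl, the very long-chain acyl-CoA dehydrogenase of the inner membrane, read 5.78, 5.84 and 5.93 in knockout fetal liver, 6.21 and 6.65 in adult bone marrow, and 6.33, 6.04 and 5.59 in wild-type fetal liver. All 3 group means were above background, the knockout one by 0.018, and 6 of its 11 probe sets were above background. The adult arrays lay above all knockout arrays and overlapped the wild-type ones, and no difference passed the test (knockout minus adult -0.58, adjusted p = 0.14; adult minus wild-type 0.44, adjusted p = 0.347). Another 11 probe sets carry both the Acadvl and the Dvl2 symbol and were left out of the gene's value. Their median differences were 0.48 for knockout minus wild-type, -0.07 for adult minus wild-type and 0.63 for knockout minus adult, each of opposite sign to the gene's own value (-0.14, 0.44 and -0.58).

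Acadl, the long-chain dehydrogenase, read 8.08, 7.79 and 7.80 in knockout fetal liver, 7.64 and 8.01 in adult bone marrow, and 6.48, 7.31 and 7.86 in wild-type fetal liver. The wild-type arrays spanned more than the other groups, with replicate 1 low and replicate 3 inside the range of the knockout arrays. Knockout minus wild-type was 0.68, the enzymes' largest difference in that comparison (95% interval -0.01 to 1.36, limma adjusted p = 0.647). It ran from 0.31 to 1.00 over the alternatives and was 0.31 without wild-type replicate 1. All 12 of its probe sets were higher in knockout than in wild-type fetal liver by their means, and 1 of the 12 had knockout arrays clear of the wild-type ones. Adult minus wild-type was 0.61 (adjusted p = 0.378). Knockout minus adult was 0.07 as deposited and -0.30 after quantile normalization.

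Acadm, the medium-chain dehydrogenase, read 9.34, 8.37 and 8.79 in knockout fetal liver, 8.87 and 8.38 in adult bone marrow, and 8.98, 9.11 and 9.25 in wild-type fetal liver. Both adult arrays were below the 3 wild-type arrays, and the knockout arrays reached both higher and lower than the wild-type ones. Adult minus wild-type was -0.49 (SE 0.28, adjusted p = 0.382), with all 9 probe sets lower in adult bone marrow by their means. Knockout minus wild-type was -0.28 (adjusted p = 0.779). Knockout minus adult was 0.21 as deposited and -0.17 after quantile normalization.

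Acads, the short-chain dehydrogenase, was the steadiest of the 9 within groups. It read 6.03, 6.40 and 5.89 in knockout fetal liver, 5.96 and 6.15 in adult bone marrow, and 6.21, 6.37 and 6.33 in wild-type fetal liver, all of them near background. Both adult arrays were below the wild-type ones by a small margin (-0.25, SE 0.19, adjusted p = 0.514), and the knockout arrays overlapped both other groups.

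Hadha, the subunit of the trifunctional protein with the long-chain hydratase and hydroxyacyl-CoA dehydrogenase activities, read 9.33, 9.09 and 8.63 in knockout fetal liver, 8.24 and 7.68 in adult bone marrow, and 9.18, 8.56 and 8.83 in wild-type fetal liver. Both adult arrays were below all 6 fetal arrays. Its means were 9.02 ± 0.35 in knockout fetal liver (SD, n = 3), 7.96 ± 0.40 in adult bone marrow (SD, n = 2) and 8.86 ± 0.31 in wild-type fetal liver (SD, n = 3). Knockout minus adult was 1.06 (2.08-fold, SE 0.27, limma adjusted p = 0.0446), and adult minus wild-type was -0.90 (1.86-fold lower, SE 0.27, adjusted p = 0.117). The knockout minus adult call was lost whichever 1 of the 5 arrays was left out, with adjusted p from 0.0514 to 0.186, while the difference stayed between 0.77 and 1.34.

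Hadh, which oxidises short and medium-chain hydroxyacyl-CoA, read 7.08, 7.79 and 7.88 in knockout fetal liver, 6.65 and 6.36 in adult bone marrow, and 7.56, 6.78 and 6.77 in wild-type fetal liver. The adult arrays were the lowest, and knockout replicate 1 lay within the wild-type range. Knockout minus adult was 1.07 and missed the threshold (2.1-fold, SE 0.31, limma adjusted p = 0.0602). It passed with dim genes left out (adjusted p = 0.0495) and after centring each array on its median (0.0484), and did not under the other 13 alternatives, with adjusted p up to 0.197. Adult minus wild-type was -0.53 (adjusted p = 0.395) and knockout minus wild-type 0.54 (95% interval -0.08 to 1.16, adjusted p = 0.665).

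Acaa2, the mitochondrial thiolase of medium-chain substrates, read 8.12, 8.79 and 8.30 in knockout fetal liver, 7.52 and 7.41 in adult bone marrow, and 8.68, 8.29 and 8.58 in wild-type fetal liver. Both adult arrays were below every fetal array, and the fetal groups overlapped. The means were 7.46 ± 0.07 in adult bone marrow (SD, n = 2) and 8.52 ± 0.20 in wild-type fetal liver (SD, n = 3), so the adult level was 2.07-fold lower (log2 difference -1.05, SE 0.22, limma adjusted p = 0.0401). Knockout minus adult was 0.94 (SE 0.22, adjusted p = 0.0348), and knockout minus wild-type -0.11 (95% interval -0.56 to 0.34). The adult minus wild-type call was lost whichever 1 of the 5 arrays was left out (adjusted p 0.0638 to 0.116, difference -1.17 to -0.97). The knockout minus adult call was kept without knockout replicate 1 (adjusted p = 0.0483) and lost without knockout replicates 2 or 3 or either adult array, with adjusted p up to 0.11. With the median over probe sets in place of their mean, knockout minus adult was 0.25 (adjusted p = 0.642), the widest move among the 15 alternatives, over which the adjusted p began at 0.0267.

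**Figure D2:**
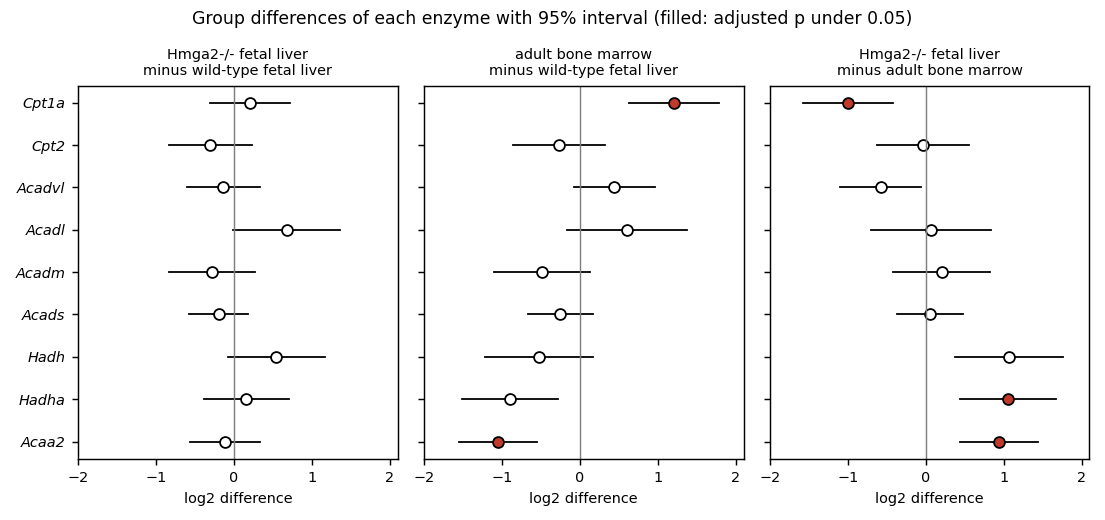
Log2 difference between groups (horizontal axis) with its 95% interval for each enzyme, ordered by step from the top, for knockout minus wild-type fetal liver, adult bone marrow minus wild-type fetal liver and knockout fetal liver minus adult bone marrow. Filled points passed the adjusted threshold: none in the left panel, Cpt1a (1.21) and Acaa2 (-1.05) in the middle one, and Cpt1a (-0.998), Hadha (1.06) and Acaa2 (0.94) in the right one.

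By step, the differences of adult bone marrow from wild-type fetal liver were above 0 for the entry enzyme Cpt1a and for the dehydrogenases of the longest chains, Acadvl and Acadl, and below 0 for Cpt2, Acadm, Acads, Hadha, Hadh and Acaa2. Of these, Cpt1a and Acaa2 alone were called, and Cpt2 turned to 0.064 without adult replicate 2. Acadvl lay near background, and its probe sets shared with Dvl2 had a median difference of -0.07. Acadl ran from 0.24 to 0.93 with 1 array left out. In that comparison 3 of 9 enzymes were above 0 and 6 below, with a median of -0.27 against 0.06 over all genes. The adult arrays did not overlap the wild-type fetal arrays for 6 of 9 enzymes, against 35.7% of all genes. For knockout minus wild-type, 4 were above 0 and 5 below, with a median of -0.11 against -0.02 over all genes, and 0 of 9 had groups without overlap, against 13.8% of all genes. For knockout minus adult, which shares its arrays with both other comparisons, 6 were above 0 and 3 below, the median was 0.07 against -0.07, and 5 of 9 did not overlap, against 50.2% of all genes. All 9 enzymes were above background, whereas all genes include dim ones: with dim genes left out, the median over genes was 0.12 for knockout minus adult, above that of the enzymes, and -0.08 for adult minus wild-type. The median size of the difference, signs set aside, was 0.53 for adult minus wild-type against 0.24 over all genes, and 0.21 for knockout minus wild-type against 0.16. These sizes and the shares without overlap were not taken with dim genes left out, so they do not set the enzymes against genes of like brightness. Averaged over the 9 enzymes, the arrays read 7.48, 7.55 and 7.50 in knockout fetal liver, 7.39 and 7.24 in adult bone marrow, and 7.47, 7.45 and 7.43 in wild-type fetal liver. Both adult arrays had the lowest averages, although Cpt1a was at its highest there.

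The calls over all genes depended on the scaling, which bears on how these directions are read. Of the genes called for adult minus wild-type, 26.1% were higher in adult bone marrow as deposited and 48.0% after quantile normalization. For knockout minus adult, 65.1% of called genes were higher in knockout fetal liver as deposited, 50.9% after quantile normalization and 77.3% after centring on the median. Under these same scalings Cpt1a stayed higher, and Acaa2 and Hadha lower, in adult bone marrow than in either fetal group, but not every call held. Quantile normalization ended the Acaa2 calls for adult minus wild-type (adjusted p = 0.111) and knockout minus adult (0.141) and the Hadha call for knockout minus adult (0.167), and median centring ended the Cpt1a call for knockout minus adult (0.0578).

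The enzymes also differed in how tightly replicates held together. The pooled SD within groups was highest for Acadl (0.464), which lay at percentile 87.8 of the genes above background, followed by Hadh (0.41) and Acadm (0.353). It was lowest for Acads (0.184) and next for Acaa2 (0.257), both under the median of 0.27 over genes above background.

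Probe sets of 1 gene read different parts of its transcripts on the same arrays, so they are not replicates of a condition. The share of all probe sets without overlap was not computed, so the counts without overlap are a description. Among all genes, 35.7% had no overlap for adult minus wild-type and 13.8% for knockout minus wild-type. For Cpt1a, 18 of 19 probe sets were higher in adult bone marrow than in wild-type fetal liver by their means, from -0.05 to 2.58, and 9 of the 19 had adult arrays clear above the wild-type ones. For Acaa2, all 9 were lower in adult bone marrow (-1.84 to -0.14), 5 of them without overlap. For Hadha, 19 of 21 were lower, 9 without overlap, and 1 probe set stood apart at -3.79. Another was higher without overlap (0.37). Acadm was lower in all 9, 2 without overlap. Hadh was lower in 6 of 8, 1 without overlap, and 1 was higher without overlap (1.67), its largest difference in size. Acadl was higher in 9 of 12 (-0.82 to 1.84), 4 without overlap. Acadvl was higher in 7 of 11, 0 without overlap, and 1 was lower without overlap. Acads was lower in 6 of 10, 4 without overlap, and Cpt2 in 4 of 5, 1 without overlap.

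Between knockout and wild-type fetal liver, Acaa2 was not uniform over its probe sets. In order of probe set number, which is not known to be the order along the transcript, the first 3 were lower in knockout (-2.15, -1.60 and -0.51) and the other 6 higher (0.05 to 1.15). The first probe set had a mean of 5.53 in knockout fetal liver, 6.94 in adult bone marrow and 7.68 in wild-type fetal liver. Of the 9 probe sets, 2 were lower and 3 higher in knockout without overlap between arrays, so the gene's value of -0.11 is an average over probe sets of opposite sign. Hadh had 1 probe set 2.17 higher in knockout, with group means of 8.27, 6.34 and 6.09 in knockout fetal liver, adult bone marrow and wild-type fetal liver. Its next largest was 1.16 and the rest lay between -0.48 and 0.76. Set against adult bone marrow, knockout fetal liver had higher Acaa2 in 7 of 9 probe sets (-1.41 to 2.25), 5 without overlap. In the same comparison Hadha was higher in 19 of 21, 12 without overlap, and Cpt1a lower in 15 of 19, 8 without overlap. Of all genes, 50.2% had no overlap there.

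**Figure D3:**
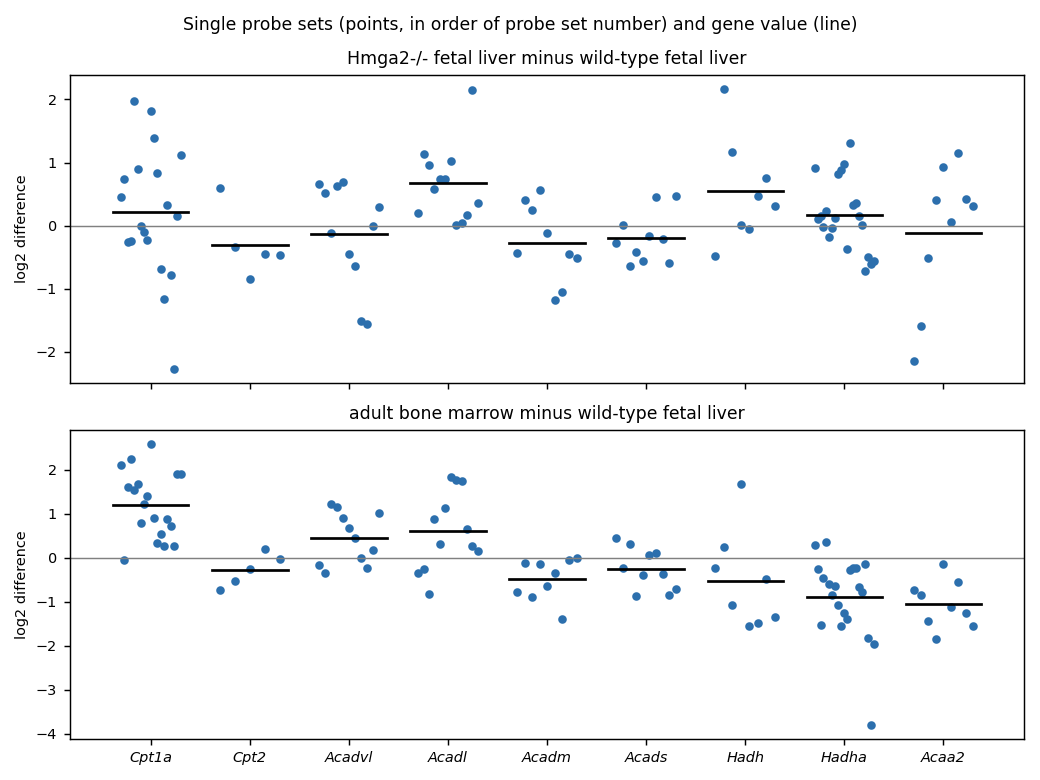
Log2 difference (vertical axis) of every probe set of each enzyme, as points in order of probe set number, with the gene's value as a line, for knockout minus wild-type fetal liver (upper panel) and adult bone marrow minus wild-type fetal liver (lower panel). In the lower panel 18 of 19 Cpt1a points are above 0 and all 9 Acaa2 points below; in the upper panel the first 3 Acaa2 points are below 0 and the other 6 above.

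Genes whose profile over the 8 arrays was most like that of Cpt1a, by the root mean square difference of centred log2 values among 11581 genes above background and outside the pathway lists, were Ifi47, an interferon-induced GTPase (0.153), Adck2 (0.172) and Gabbr1, a GABA-B receptor subunit (0.226). Their adult minus wild-type differences were 1.23, 1.15 and 0.87. For Acaa2 they were Aldoa, the glycolytic aldolase (0.0961), Apool, a protein of the mitochondrial inner membrane (0.134), and Bcl2l1, an inhibitor of apoptosis (0.135), with adult minus wild-type differences of -1.0, -0.89 and -0.81. Each of these 6 was chosen for its likeness, so the differences are given as a description.

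The neighbouring genes of the pathway were taken by role in 9 lists. Beside their counts, 0.832% of all genes were called higher and 2.36% lower for adult minus wild-type. For knockout minus adult, 5.8% of all genes were called higher and 3.11% lower. Upstream of the enzymes, fatty acid uptake, activation and the carnitine shuttle had 0 of 14 genes called for adult minus wild-type and a median of 0.16. Nearest to the threshold were Crat, the carnitine acetyltransferase (-0.43, adjusted p = 0.191), and Acsl5, a long-chain acyl-CoA synthetase (-0.45, adjusted p = 0.267). Acsl5 was the 1 gene of this list called for knockout minus adult (0.79, adjusted p = 0.041), and that call was lost whichever array was left out (adjusted p up to 0.139).

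Beside the core enzymes, the auxiliary enzymes and electron carriers had 2 of 16 genes called lower in adult bone marrow than in wild-type fetal liver, with a median of -0.22. Decr1, the dienoyl-CoA reductase needed for unsaturated chains, was 2.2-fold lower (-1.14, SE 0.18, limma adjusted p = 0.0145). Acad9, an acyl-CoA dehydrogenase that also assembles respiratory complex I, was -0.76 (SE 0.17, adjusted p = 0.0493). Without 1 array at a time, Decr1 stayed called in 4 of 5 fits and Acad9 in 0 of 5. For knockout minus adult, 4 of 16 were called, all higher: Decr1 (1.06), Etfa, a subunit of the flavoprotein that takes the electrons from the acyl-CoA dehydrogenases (0.98), Eci2 (0.79) and Acad9 (0.77). With 1 array left out, Decr1 stayed called in 4 of 5 fits, Acad9 in 1, and Etfa and Eci2 in 0.

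Of the peroxisomal genes, 0 of 13 were called in any comparison, and 8 of the 13 were above background in at least 1 group. Scp2, the thiolase and sterol carrier of the peroxisome, came nearest for adult minus wild-type (-0.70, adjusted p = 0.21). Among regulators, 0 of 18 were called in any comparison, and Lpin1, a coactivator of PPAR alpha, came nearest for adult minus wild-type (0.76, adjusted p = 0.125). Ppara, Pparg and Ppargc1a were below background in all 3 groups, and Ppard read 6.36 in knockout fetal liver, 6.11 in adult bone marrow and 6.34 in wild-type fetal liver. Other PPAR targets had 0 of 14 called for adult minus wild-type, with a median of 0.33. Only 6 of these 14 were above background in any group, so that median rests largely on dim genes. For knockout minus adult 1 was called, Cyp4a14, with both groups below background. That call was lost whichever array was left out.

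Malonyl-CoA and fatty acid synthesis, the opposing pathway, had 1 gene called higher and 2 lower of 19 for adult minus wild-type, with a median of -0.26. Scd2, a stearoyl-CoA desaturase, was -1.23 (SE 0.21, limma adjusted p = 0.0196), and Hsd17b12, a reductase of fatty acid elongation, was -1.06 (SE 0.21, adjusted p = 0.0312). Prkaa2, a catalytic subunit of the AMP-activated kinase that inhibits malonyl-CoA synthesis, was at least 1.31-fold higher in adult bone marrow (adjusted p = 0.0413), its wild-type fetal level being below background. With 1 array left out at a time, Scd2 stayed called in 2 of 5 fits, Hsd17b12 in 0 and Prkaa2 in 1. For knockout minus adult, Hsd17b12 (0.85), Scd2 (0.83) and Acaca, the acetyl-CoA carboxylase (at least 1.06-fold), were called higher, and Prkaa2 lower (at least 1.31-fold). With 1 array left out, Prkaa2 stayed called in 2 of 5 fits, Hsd17b12 in 1, and Scd2 and Acaca in 0.

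Downstream, 5 of 20 genes of the tricarboxylic acid cycle and pyruvate dehydrogenase were called lower in adult bone marrow than in wild-type fetal liver and 0 higher, with a median of -0.61. Pdha1, a subunit of pyruvate dehydrogenase, was 4.53-fold lower (-2.18, SE 0.27, limma adjusted p = 0.00582) and stayed called whichever array was left out. The others were Mdh2 (-1.22), Sdhb (-1.17), Cs (-0.92) and Dld (-0.87), each of which was called in 1 or 2 of 5 such fits. Of 22 genes of mitochondrial DNA upkeep, import and chaperones, 3 were called lower, Hspa9 (-1.06), Tfam (-0.94) and Phb2 (-0.90), and 0 higher, with a median of -0.60. Hspa9 stayed called in 1 of 5 fits with an array left out, and Tfam and Phb2 in 0. For knockout minus adult, 7 of 20 and 6 of 22 were called in these lists, all higher in knockout fetal liver; those with the smallest p were Pdha1 (1.83) and Sdhb (1.26), and Tfam (1.42) and Tomm22 (1.32), and these 4 stayed called whichever array was left out. Of the other 9, Dld stayed called in 3 of 5 such fits, Cs, Idh3a, Sucla2, Mdh2, Nrf1, Tomm70a and Hspa9 in 1, and Vdac2 in 0. Over the 15 alternatives the counts ran from 2 to 8 for the tricarboxylic acid cycle and from 1 to 8 for mitochondrial upkeep and import. Proliferation genes moved with these. Of 12, 7 were called lower in adult bone marrow than in wild-type fetal liver (2.36% of all genes). Likewise 7 of 12 were called higher in knockout fetal liver than in adult bone marrow (5.8% of all genes). Their part in the enzyme and list differences was not tested.

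For knockout minus wild-type fetal liver, limma called 0 genes in each of the 9 lists, and 10 of the 150 listed genes outside the enzymes had an unadjusted p under 0.05, against 1523 of 19958 genes. The smallest p-values were those of Nrf1, an activator of nuclear genes for mitochondrial proteins (0.56, SE 0.14, adjusted p = 0.577), and Tomm22, an import receptor (0.69, SE 0.19, adjusted p = 0.577), neither of which passed. The list medians lay between -0.08 for uptake and activation and 0.39 for branched and odd chain catabolism.

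**Figure D4:**
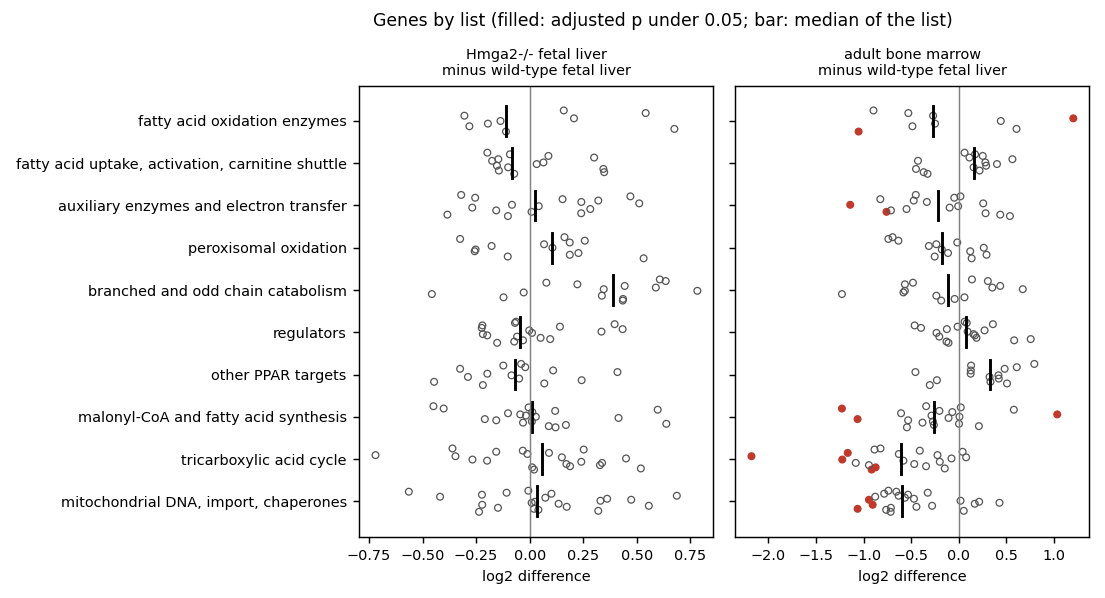
Log2 difference (horizontal axis) of each measured gene of the enzyme list and of the 9 neighbouring lists, 1 row per list, with the list median as a bar and called genes filled, for knockout minus wild-type fetal liver (left) and adult bone marrow minus wild-type fetal liver (right). No point is filled on the left; on the right the medians of the tricarboxylic acid cycle (-0.61) and of mitochondrial DNA, import and chaperones (-0.60) lie farthest below 0.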

How the data were processed

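RNA of sorted cells was measured on 8 Affymetrix Mouse Gene 1.0 ST arrays. The deposited values are intensities on a linear scale, normalised with RMA per the submitters' processing notes; its version and the genome build are not given in the sources used here. In all, the value table held 225993 probe sets, of which 208881 had exactly 1 platform gene symbol, 1668 several and 15444 none. Of 19958 symbols, 17255 were current in RefSeq GRCm38.p6, 2585 were updated through synonyms and 118 kept as given. Deposited intensities were log2 transformed, and probe sets of 1 symbol averaged per gene, with a median of 8 per gene (a change in 1 part of a transcript can be averaged away). Array medians over probe sets lay between 6.20 and 6.27.

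Groups were compared with limma 3.58.1 in R 4.3.3 (lmFit and eBayes, 1 coefficient per group, all 8 arrays) and two-sided p-values were adjusted over all genes. The fit was tested on simulated data. Precision is limited by having 2 or 3 arrays a group, and the p-values reflect only how these samples varied. A gene whose mean in 1 group lay below background has a fold given as at least N-fold, each of that group's arrays below background being raised to it; where both groups lay below it no fold is given. Tables were prepared with Python 3.11.15.

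The enzymes, the lists and the rule for named genes were chosen with earlier results of these data known. The rule took all enzymes; from each list and comparison up to 6 called genes of smallest p, or, where none was called, up to 2 given as not passing; 3 genes of most like profile for each of the 2 enzymes that differed most between adult bone marrow and wild-type fetal liver; and Hmga2, Kit and Ly6a. Regulators named for being below background, with Ppard, and the levels of hepatocyte genes were added after their values were seen.

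Alternatives changed the arrays in the fit (2 groups only, or 1 array left out at a time), the model (replicate number as a block, array weights, trended and robust variance), the scaling (quantile normalization or median centring), the filter (dim genes or dim probe sets removed) and the summary (median over probe sets, or the deposited exon table). Same-numbered arrays did not deviate together (correlations of deviations from -0.038 to 0.112), and no 2 arrays were identical.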

Additional observations from a re-analysis of the deposited data

How the results depend on the processing

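Each difference of an enzyme that was called kept its direction under all 15 alternatives, but each call held under fewer than 7 of them. For adult bone marrow minus wild-type fetal liver, Acaa2 was called under 2 of 15 (adjusted p 0.0315 to 0.144) and Cpt1a under 5 of 15 (0.0239 to 0.19). For knockout fetal liver minus adult bone marrow, Acaa2 was called under 6 of 15 (0.0267 to 0.642), Hadha under 5 (0.0337 to 0.186) and Cpt1a under 4 (0.0259 to 0.182). The labels do not say that replicate numbers pair the samples. With the replicate number as a block, 0 enzymes and 185 genes were called for adult minus wild-type, 1 enzyme and 489 genes for knockout minus adult, and 2 genes for knockout minus wild-type as before; among enzymes the block turned knockout minus adult of Acadl to -0.070 and of Cpt2 to 0.0060. For adult minus wild-type, all genes called numbered 120 in the fit on 2 groups, 179 with the median over probe sets and 322 in the exon table, and 225 to 574 with 1 array left out, against 637. Called enzymes numbered 0 in the fit on 2 groups, with trended and robust variance, the median over probe sets, array weights or the exon table, 1 without dim probe sets or after quantile normalization, and 0 to 1 with 1 array left out, against 2. The enzymes' median there was -0.39 without dim probe sets, -0.57 with the median over probe sets, -0.16 after quantile normalization, -0.33 after median centring or with array weights, and -0.60 to -0.22 with 1 array left out; Cpt2 ran from -0.60 to 0.064. For knockout minus adult, all genes called numbered 762 with the median over probe sets, 1067 after quantile normalization, 1103 in the exon table and 482 to 1253 with 1 array left out, against 1779. Called enzymes numbered 1 in the fit on 2 groups, after quantile normalization or with array weights, 0 with the median over probe sets or in the exon table, 0 to 1 with 1 array left out, and 4 with dim genes left out, where Hadh was added (adjusted p 0.0495), against 3. Median centring also gave 3, with Hadh gained (0.0484) and Cpt1a lost (0.0578). The enzymes' median was 0.25 with the median over probe sets, -0.17 after quantile normalization, 0.14 after median centring and 0.091 to 0.30 with 1 array left out. Of uncalled enzymes in that comparison, Cpt2 turned to 0.12 without dim probe sets, 0.77 with the median over probe sets and 0.040 after median centring; Acadl to -0.30 and Acadm to -0.17 after quantile normalization; and Acadl to -0.11 in the exon table. With 1 array left out they ran from -0.12 to 0.25 (Acadl), -0.047 to 0.45 (Acadm), -0.093 to 0.16 (Acads) and -0.37 to 0.30 (Cpt2). For knockout minus wild-type, 0 enzymes were called throughout, and 1 gene in all was called in the exon table, 2 to 3 with 1 array left out. The enzymes' median was -0.051 with array weights and -0.11 to 0.0047 with 1 array left out. With the median over probe sets, Hadha turned to -0.11, Cpt1a to -0.11 and Cpt2 to 0.095, and with 1 array left out Acaa2 ran from -0.30 to 0.033, Acadvl from -0.33 to 0.034 and Cpt1a from -0.031 to 0.43. The fits without 1 array or 1 group have fewer samples, and the filters change which genes are tested; for the rest the cause was not tested. Acads and Acadvl lie near background, which limits what their differences can show.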

Other observations

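Branched and odd chain catabolism, the mitochondrial breakdown of valine, leucine, isoleucine and propionyl-CoA, had the highest median of the 9 lists for knockout minus wild-type fetal liver. It was 0.39 over 14 genes, 11 above 0 and 3 below, against a median of -0.02 over all genes, and it lay between 0.22 and 0.44 under the alternatives. None of the 14 was called by limma, and 0 had an unadjusted p under 0.05. Acad8, the isobutyryl-CoA dehydrogenase of valine breakdown, was 0.43 (SE 0.20, adjusted p = 0.649), and Mccc1, a subunit of methylcrotonyl-CoA carboxylase of leucine breakdown, was 0.59 (SE 0.27, adjusted p = 0.651). For adult bone marrow minus wild-type fetal liver the median of the list was -0.11, with 0 of 14 called, and Dbt, a subunit of the branched-chain ketoacid dehydrogenase, came nearest at -1.23 (SE 0.30, adjusted p = 0.0648). For knockout fetal liver minus adult bone marrow, which shares arrays with both, the median was 0.52, with 12 genes above 0 and 0 called. The list was singled out after its values were seen.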
